A study of Homo sapiens with 16 samples.

Results

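The interleukin-1 (IL1) family was read in 2 cancer cell lines through 10 genes: the ligands IL1A, IL1B, IL18 and IL33, the receptor antagonist IL1RN, the receptors IL1R1 and IL1R2, the accessory chain IL1RAP and the receptor kinases IRAK1 and IRAK2. Members were taken by gene symbol from 1 table per line, over all 4 groups of each. Of the 10, 9 had a row among the 19454 genes of the PC9 table and 8 among the 17954 genes of the MDA231 table. IL33, a nuclear alarmin, had no row in either table, and IL1R2 had none in MDA231; the lowest gene kept in each table had 15 reads over its 8 libraries. All 9 PC9 rows had a mean value of at least 10, the minimum for testing, against 7 of the 8 in MDA231, where IL1RN had 0 to 4 reads in a library.

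PC9 is a lung cancer line and MDA231 a breast cancer line. In each, parental cells without a hairpin were set beside LeptoM cells, a metastatic derivative from the leptomeninges (the membranes around the brain), and the LeptoM cells carried a lentiviral control hairpin (shCTL) or 1 of 2 lentiviral hairpins against lipocalin-2 (LCN2), shLCN2_1 and shLCN2_2. Each of the 8 groups had 2 libraries of polyadenylated RNA from cells grown in dishes, so all LeptoM groups were transduced and the parental groups were not, and being LeptoM and carrying a hairpin cannot be told apart against the parental cells. The labels name no separate cultures behind a group's 2 libraries, so each p-value rests on a spread that may be technical.

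IL-1 alpha and IL-1 beta bind the receptor IL1R1, which recruits IL1RAP, the adaptor MYD88 and the IRAK kinases and activates NF-kB and MAP kinases. The family has several brakes: IL1RN occupies IL1R1 without signalling, and IL1R2 is a decoy that binds ligand and lacks a signalling domain. IL-1 beta and IL-18 are made as precursors that caspase-1 cuts in the inflammasome, so the RNA level alone does not give the amount of active cytokine. LCN2, the gene targeted by the hairpins, is itself a known IL-1 responsive gene, and monocytes, neutrophils and epithelia make it during inflammation.

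The ligand genes IL1A and IL1B and the antagonist IL1RN lie near each other on chromosome 2 (GRCh38 IL1A chr2:112773915-112784590 and IL1B chr2:112829751-112836903 on the minus strand, IL1RN chr2:113107214-113134016 on the plus strand). The sequences before their start sites are shown because IL1RN, a gene with several RefSeq starts, had the largest change of the members in PC9, while its neighbours IL1A and IL1B were not called there. They are RefSeq promoter windows (GRCh38.p14) that begin 250 bases before a RefSeq start, with any bases in GENCODE exons of the gene left off, read on the gene's strand, with capitals for matches on either strand to a kappaB-like motif, taken as 3 G, any 5 bases and then 2 C.
IL1RN upstream start, chr2:113117721-113117892: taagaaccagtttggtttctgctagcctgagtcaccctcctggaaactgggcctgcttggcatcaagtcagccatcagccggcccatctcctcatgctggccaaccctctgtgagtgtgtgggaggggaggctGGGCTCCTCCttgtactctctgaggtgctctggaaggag
IL1RN downstream start, chr2:113127348-113127560: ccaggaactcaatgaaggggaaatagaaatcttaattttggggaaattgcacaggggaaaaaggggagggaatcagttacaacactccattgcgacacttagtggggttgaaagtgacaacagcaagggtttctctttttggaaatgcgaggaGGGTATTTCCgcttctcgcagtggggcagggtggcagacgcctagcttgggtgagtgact
IL1A, chr2:112784591-112784743: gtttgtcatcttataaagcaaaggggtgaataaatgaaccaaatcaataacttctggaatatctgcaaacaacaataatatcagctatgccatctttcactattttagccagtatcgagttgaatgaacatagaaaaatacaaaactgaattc
IL1B, chr2:112836904-112837029: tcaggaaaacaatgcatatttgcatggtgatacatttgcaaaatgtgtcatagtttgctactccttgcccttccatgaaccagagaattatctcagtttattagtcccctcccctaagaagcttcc

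The 172 bases of the upstream IL1RN start and the 213 bases of its downstream start held 1 match each, and the 153 bases of IL1A and 126 of IL1B held none. The full 250 bases before the upstream IL1RN start held 3 matches, since the 78 bases next to that start lie in exons and were left off. Both IL1RN stretches lie inside the GENCODE gene, whose annotated start is further upstream. The window of another IL1RN start, chr2:113127239-113127488, which overlaps the downstream one, held no match, nor did a shorter IL1A stretch of 60 bases, and neither is printed. Stretches of the same lengths, taken from the same distance before the starts of 35116 RefSeq windows, held a match in 40.9%, 49.1%, 36.9% and 31.1%, so a match or its lack is common. A match describes letters only, and the data do not say which start was used. GC content was 58.1% and 48.8% in the IL1RN stretches, 31.4% in IL1A and 40.5% in IL1B. Of the 17 windows of 250 bases before starts of 9 members, 7 held a match, against 54.4% of all RefSeq windows. IL18 was not in the window table.

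The unit throughout is a normalised value, the reads of a gene over the library's size factor. PC9 libraries held 36796098 to 51759154 gene reads. In MDA231 the LeptoM libraries held 41751486 to 49050069, and the parental ones 11592790 and 11613984. LCN2, checked for the labels, had values of 51004 and 49615 in PC9 shCTL against 3575 and 7046 with shLCN2_1 and 21415 and 18861 with shLCN2_2, whereas in MDA231 it was at 2.98 to 19.3 in every library, too low to check a knockdown. CDH1, an epithelial cadherin, was at 19942 to 28434 in PC9 and 0 to 7.15 in MDA231, where other epithelial genes were present (KRT18 at 10400.5 to 14309 and EPCAM at 233 to 371) beside VIM at 174830 to 225347. Of 3 lung markers in PC9, NKX2-1 and SFTPB were at 0 to 12.9 and NAPSA at 21.8 to 40.7. Of the breast markers, ESR1 was at 2.87 to 12.9 in MDA231 and 167 to 449 in PC9. ERBB2 was at 539 to 1890 in MDA231 and had group means of 2575 to 6517 in PC9, and PGR had no row in either table. Of 10 macrophage and leukocyte markers, AIF1, CD163, FCGR1A, SPI1 and TYROBP had no row in either table. The PC9 shLCN2_1 libraries stood apart from the other 6 of that line: across genes, Spearman's rho of GC content with the log2 deviation from each gene's own mean was -0.55 and -0.64, against -0.16 to 0.51, and the chi-square per degree of freedom between these replicates was 35.2, against 2.72 to 15.4 in the other PC9 groups. The rho of MDA231 parental libraries was -0.29 and -0.60, while LeptoM ones there had -0.33 to 0.65, 5 of 6 positive, with a chi-square per degree of freedom of 9.79 to 23.8. For members called in PC9 shLCN2_1 against shCTL, the value with the GC trend removed is given beside the fitted one.

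The members formed different sets in the 2 lines, as the plot of values by library shows. Levels of different genes were compared per kb of exon. In PC9 parental cells the ligand with the highest level was IL18 at 759 ± 36.04 per kb (SD, n = 2), with IL1A at 28.8 ± 0.874 and IL1B at 24.5 ± 0.209. In MDA231 parental cells it was IL1B at 2637 ± 204 per kb, followed by IL1A at 566 ± 111 and IL18 at 476 ± 72.1, and the last 2 did not differ beyond their spread. PC9 held transcripts of both brakes, with IL1RN at 44.1 ± 5.74 per kb and the decoy IL1R2 at 184 ± 0.361 per kb in parental cells, whereas in MDA231 IL1RN was at 0.436 ± 0.616 per kb and IL1R2 had no row. The signalling receptor IL1R1 was at 110 ± 5.16 per kb in parental PC9 and 11.7 ± 2.21 in parental MDA231. The tables were normalised separately, so levels set across the lines are side by side only.

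Beginning with the ligands in LeptoM cells, IL1A, a cytokine held in the cell and released on damage, was low in PC9. Its PC9 values were 62.5 and 59.9 in parental cells, 26.6 and 29.5 with shCTL, 6.29 and 24.2 with shLCN2_1, and 15.3 and 13.9 with shLCN2_2. Parental libraries were highest and did not overlap with any LeptoM library, the shCTL libraries came next, and the 2 knockdown groups overlapped. Even so, no IL1A comparison in PC9 was called: LeptoM shCTL against parental gave a log2 fold change of -1.10 (SE 0.51, adjusted p = 0.112), on 114 reads over the parental group and 58 over shCTL. With the shLCN2_1 group left out of the fit, a setting chosen after seeing the data, the same difference had an adjusted p of 0.00366.

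In MDA231, IL1A was called in both steps. Values were 1035 and 1367 in parental cells, 666 and 692 with shCTL, 258 and 257 with shLCN2_1, and 675 and 728 with shLCN2_2. The shLCN2_1 libraries were lowest, the shCTL and shLCN2_2 libraries overlapped, and the parental libraries were above all others. IL1A fell by 0.81 on the log2 scale from parental to LeptoM shCTL (SE 0.14, adjusted p = 0.00400) and by 1.39 from shCTL to shLCN2_1 (SE 0.14, adjusted p = 0.0119), a fold of 0.381. Under shLCN2_2 the log2 difference from shCTL was 0.05 with a 95% interval of -0.29 to 0.39, and the 2 hairpins differed by -1.44 (SE 0.14, adjusted p = 0.00676). Fewer cells making a transcript and less of it per cell cannot be told apart in these bulk libraries. The shLCN2_1 call was lost without any 1 of 5 of the 8 libraries: leaving out either shCTL library, either shLCN2_1 library or shLCN2_2 replicate 2 kept the fold change between -1.42 and -1.37 but raised the adjusted p to between 0.0506 and 0.198.

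IL1B, the main secreted IL-1 agonist, was the most abundant ligand transcript in MDA231. There it stood at 7717 and 8610 in parental cells, 5493 and 5519 with shCTL, 4972 and 5350 with shLCN2_1, and 3627 and 3915 with shLCN2_2. The groups did not overlap, in the order parental, shCTL, shLCN2_1 and shLCN2_2, although shCTL and shLCN2_1 lay close. IL1B fell by 0.57 in LeptoM shCTL (SE 0.09, adjusted p = 0.00222). The shLCN2_2 value lay 0.55 lower than shCTL on the log2 scale but missed the threshold (SE 0.09, adjusted p = 0.0588, unadjusted p = 0.000400), while the shLCN2_1 difference was -0.09 (SE 0.09, adjusted p = 0.644). Set against each other, shLCN2_1 was above shLCN2_2 by 0.45 (SE 0.09, adjusted p = 0.0483). EdgeR on the recovered reads called the shLCN2_2 difference (adjusted p = 0.0385), and so did the fit without the parental group (adjusted p = 0.0202).

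In PC9, IL1B had values of 75.4 and 76.3 in parental cells, 60.6 and 71.1 with shCTL, 38.8 and 85.9 with shLCN2_1, and 54.7 and 52.0 with shLCN2_2. The shLCN2_1 libraries held both the lowest and the highest value, so that group overlapped with all others. No PC9 comparison of IL1B was called, and the LeptoM difference was -0.21 with a 95% interval of -0.98 to 0.56.

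IL18, which acts on T and natural killer cells through its own receptor, fell in MDA231 LeptoM cells and not in PC9. In MDA231 its values were 1117 and 1385 in parental cells, 475 and 515 with shCTL, 470 and 424 with shLCN2_1, and 356 and 396 with shLCN2_2. Parental libraries were above all 6 LeptoM libraries, and the libraries of both LCN2 hairpins were below those of shCTL. IL18 fell by 1.33 from parental to shCTL (SE 0.14, adjusted p = 0.000509), a fold of 0.398, and neither hairpin difference was called (-0.15 and -0.40, SE 0.14 each). With the GC trend removed, the MDA231 LeptoM differences of IL18, IL1A and IL1B were -1.06, -0.54 and -0.47 and that of IL1R1 was 1.92, all still called. In PC9 the values were 2061 and 1927, then 2307 and 2500, 2732 and 3324, and 2400 and 2594 in the same order of groups. The LeptoM difference was 0.27 (SE 0.10, adjusted p = 0.0633), and shLCN2_1 was above shCTL by 0.33 (SE 0.10, adjusted p = 0.0323). The latter was not called with the GC trend removed (0.09), nor without either shCTL library, shLCN2_1 replicate 2 or either shLCN2_2 library (adjusted p of 0.0544 to 0.190).

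The antagonist IL1RN had the largest change of any member. In PC9 it rose from 157 and 130 in parental cells to 925 and 924 with shCTL, and stood at 1287 and 978 with shLCN2_1 and 740 and 776 with shLCN2_2. All 6 LeptoM libraries lay above both parental ones, and within LeptoM the order was shLCN2_1, shCTL, shLCN2_2. The LeptoM difference was 2.68 on the log2 scale (SE 0.15, adjusted p = 8.0e-06), or 6.43-fold, and lay between 2.55 and 2.82 with any 1 library left out. Neither hairpin moved IL1RN from shCTL past the threshold (0.28 and -0.29, SE 0.15 each, adjusted p = 0.155 and 0.206), though shLCN2_1 was above shLCN2_2 by 0.57 (SE 0.15, adjusted p = 0.0112; 0.0688 without shLCN2_2 replicate 1). In MDA231, 1 read gave a value of 0.643 to 2.98 and all IL1RN values were 0 to 3.03, so no change was detectable at this depth.

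The balance of antagonist to agonist transcripts, as per kb values within a library, followed from these changes. IL1RN over the sum of IL1A and IL1B was 0.895 and 0.757 in PC9 parental cells, 8.85 and 7.70 with shCTL, 25.5 and 7.67 with shLCN2_1, and 9.14 and 10.2 with shLCN2_2. Parental cells were the only PC9 group with less antagonist than agonist transcript per kb, and shLCN2_1 replicate 1, where IL1A was at 6.29, stood above the rest. Lying below 1 depends on the exon lengths used: before division by length, parental replicate 1 had IL1RN at 157, IL1A at 62.5 and IL1B at 75.4. In MDA231 the ratio of IL1B to IL1A was 5.11 and 4.32, then 5.66 and 5.47, 13.2 and 14.3, and 3.69 and 3.69. The shLCN2_1 group alone was above 10, through its low IL1A. These ratios are RNA only and were not tested.

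Among the receptors, IL1R1, the signalling receptor, moved in opposite directions in the 2 lines. In PC9 it was at 807 and 755 in parental cells, 492 and 499 with shCTL, 650 and 677 with shLCN2_1, and 675 and 589 with shLCN2_2. The shCTL libraries were lowest, the knockdown groups overlapped in between, and the parental libraries were highest. IL1R1 fell by 0.65 in LeptoM shCTL (SE 0.10, adjusted p = 0.00115), then stood 0.42 above shCTL with shLCN2_1 (SE 0.10, adjusted p = 0.00958) and 0.35 with shLCN2_2 (SE 0.10, adjusted p = 0.0431). Both hairpin comparisons share the shCTL libraries, so they are not independent. Without either shCTL library neither was called (adjusted p of 0.0566 to 0.209), nor was the shLCN2_2 difference without either of its own libraries (0.0945 and 0.295). With the GC trend removed the shLCN2_1 difference was 0.23 (adjusted p = 0.0802) and the shLCN2_2 difference 0.41 (adjusted p = 0.0122).

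MDA231 parental cells had few IL1R1 reads, 33 and 24, for values of 93.6 and 71.5. LeptoM cells stood at 280 and 284 with shCTL, 325 and 301 with shLCN2_1, and 264 and 289 with shLCN2_2. All LeptoM libraries were above the parental ones, and the LeptoM groups lay close together. The LeptoM difference was 1.77 (SE 0.16, adjusted p = 0.000306), or 3.42-fold, and neither hairpin difference was called (0.15 and -0.03, SE 0.16 each).

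IL1R2, the decoy receptor, was found in PC9 at 568 and 566 in parental cells, 718 and 757 with shCTL, 381 and 837 with shLCN2_1, and 615 and 681 with shLCN2_2. The shLCN2_1 libraries were again the lowest and highest of all 8. No IL1R2 comparison was called in the fit of all groups, and LeptoM shCTL against parental gave 0.38 (SE 0.30, adjusted p = 0.327), against an adjusted p of 0.00394 without the shLCN2_1 group. Per kb, IL1R2 over IL1R1 was 1.62 and 1.73 in parental cells and 3.37 and 3.497 with shCTL, then 1.35 and 2.85 with shLCN2_1 and 2.10 and 2.66 with shLCN2_2. Per kb, decoy transcript thus exceeded receptor transcript in every PC9 library, most so in shCTL. This depends on the exon lengths used. Before division by length, IL1R2 was below IL1R1 in both parental libraries and in replicate 1 of each LCN2 hairpin. The parental values were 568 and 566 for IL1R2 against 807 and 755 for IL1R1.

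IL1RAP, the co-receptor that IL1R1 and the IL-33 and IL-36 receptors share, changed little. In PC9 it was at 442 and 383 in parental cells, 523 and 549 with shCTL, 588 and 613 with shLCN2_1, and 671 and 625 with shLCN2_2, and the groups did not overlap. LeptoM shCTL was above parental by 0.38 (SE 0.10, adjusted p = 0.0186; 0.0754 to 0.120 without parental replicate 2 or either shCTL library), and neither hairpin difference was called (0.17 and 0.27, SE 0.10 each). MDA231 IL1RAP values ran from 532 to 715 and no comparison was called. In GENCODE v29, 535 exon bases of IL1RAP are shared with AC108747.1 on the same strand, and 11 of IL1R1 with the antisense IL1R1-AS1. How reads in these bases were counted is not known, since the annotation and strandedness behind the deposited values are not given.

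**Figure D1:**
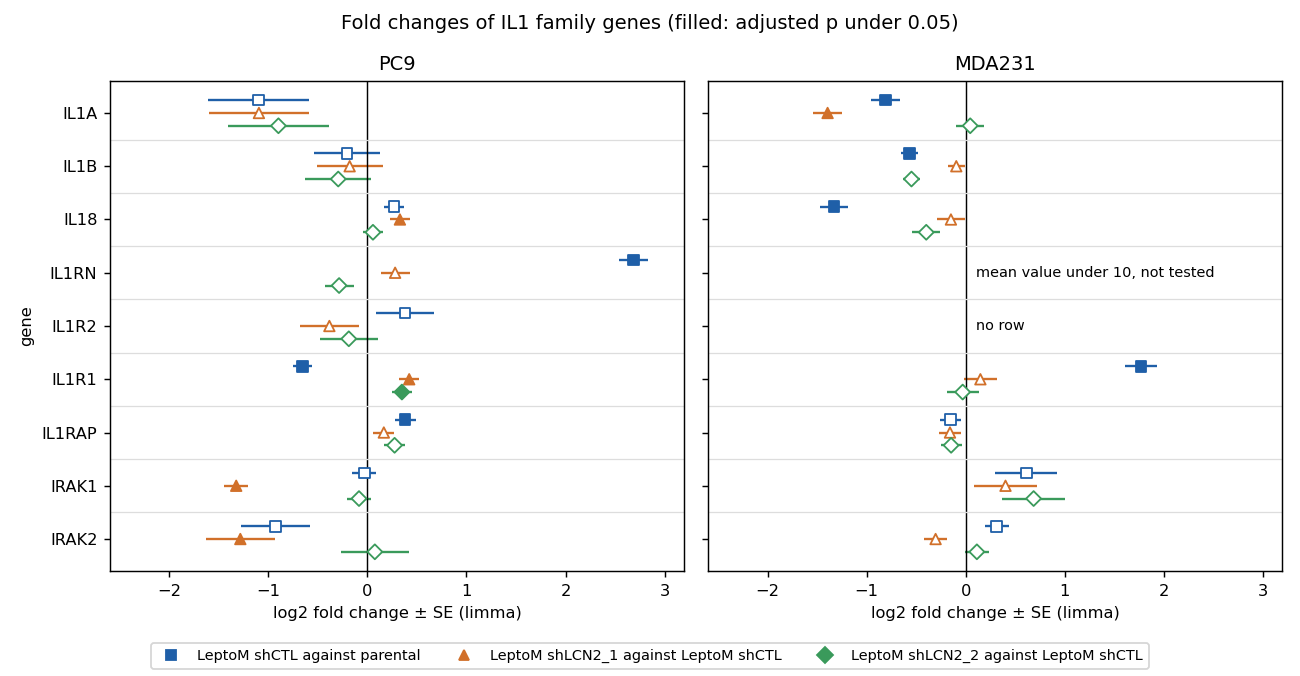
Log2 fold changes of the IL1 family genes with limma's standard error, PC9 left and MDA231 right, for LeptoM shCTL against parental and each LCN2 hairpin against shCTL. Filled symbols passed an adjusted p of 0.05, among them IL1RN at 2.68 and IL1R1 at -0.65 in PC9 and IL1R1 at 1.77 and IL1A at -0.81 in MDA231.

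The kinases came last in the chain. IRAK2, which sustains signalling from the receptor complex, had PC9 values of 2059 and 2123 in parental cells, 1097 and 1096 with shCTL, 280 and 721 with shLCN2_1, and 1139 and 1171 with shLCN2_2. Parental libraries were highest, shCTL and shLCN2_2 were close together and the shLCN2_1 libraries were lowest and far apart. IRAK2 fell by 1.28 with shLCN2_1 (SE 0.35, adjusted p = 0.0173). Without shLCN2_1 replicate 1 that difference was -0.60, and without replicate 2 it was -1.97, so its size depends on the library; without either shCTL library the adjusted p was 0.0813 and 0.0758. Against shLCN2_2 it was -1.36 (adjusted p = 0.0107; 0.0556 without shLCN2_2 replicate 2). The LeptoM difference was -0.93 (SE 0.35, adjusted p = 0.0572), and without the shLCN2_1 group its adjusted p was 5.66e-06. With shLCN2_2 it was 0.07 (95% interval -0.72 to 0.87). In MDA231, IRAK2 ran from 518 to 784 with no comparison called.

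IRAK1, the kinase that MYD88 and IRAK4 activate first, is the GC-richest member, at 63.0% of the bases of its longest annotated transcript. PC9 libraries were at 18222 and 24220 in parental cells, 20987 and 20153 with shCTL, 7772 and 8659 with shLCN2_1, and 19198 and 19568 with shLCN2_2. The shLCN2_1 libraries were below all others, and the parental libraries spanned the rest. The shLCN2_1 difference from shCTL was -1.33 (SE 0.12, adjusted p = 0.000168). With each library's trend of values over GC content removed before the fit, that difference was -0.20 (adjusted p = 0.115). Against shLCN2_2, the shLCN2_1 difference went from -1.24 to 0.07 in the same way. In that setting LeptoM shCTL against parental went from -0.03 to -0.35 (adjusted p = 0.00833). IRAK2, at 51.9% GC, stayed at -1.19 in the same setting (adjusted p = 0.0472). In MDA231, IRAK1 had its widest spread within groups, 5312 and 2759 in parental cells, 6347 and 5400 with shCTL, 6621 and 9048 with shLCN2_1, and 10951 and 8111 with shLCN2_2, and no comparison was called. IRAK1 shares 61 exon bases with MIR718.

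**Figure D2:**
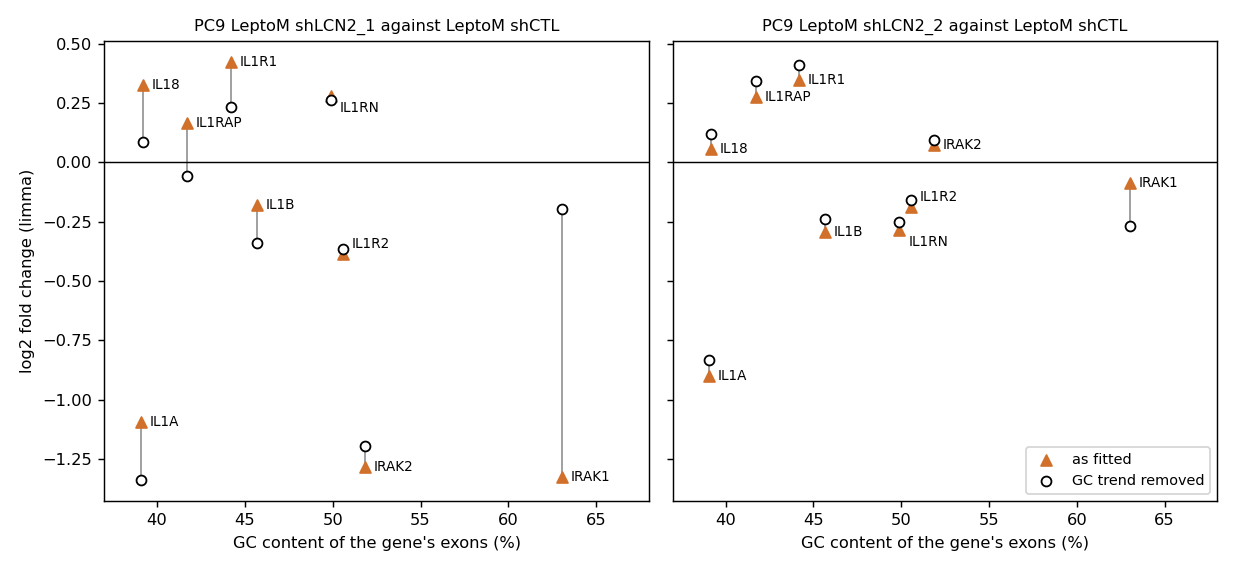
Log2 fold changes of the 9 members in PC9 against GC content in percent, for shLCN2_1 (left) and shLCN2_2 (right) against shCTL. Triangles are as fitted and open circles are with the GC trend removed. GC content is that of each gene's longest annotated transcript, though the axis names exons. IRAK1, at 63.0% GC, moves from -1.33 to -0.20 in the left panel, while IRAK2 stays at -1.28 and -1.19.

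The counts of called members were read against the share of all genes called in the same comparison. In PC9 LeptoM shCTL against parental, 3 of 9 members were called (IL1RN and IL1RAP higher, IL1R1 lower), against 45.6% of all 15650 genes tested. With shLCN2_1, 4 of 9 were called (IL1R1 and IL18 higher, IRAK1 and IRAK2 lower) against 44.2%. With the GC trend removed only IRAK2 was, against 24.9% of all genes. With shLCN2_2, 1 of 9 was called (IL1R1) against 19.5%. Between the hairpins, 3 of 9 were called (IL1RN higher, IRAK1 and IRAK2 lower in shLCN2_1) against 54.5%. Leaving out the shLCN2_1 group raised the LeptoM count from 3 to 7, and the share of all genes from 45.6% to 56.7%, adding IL1A and IRAK2 as lower and IL18 and IL1R2 as higher.

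In MDA231, 4 of 7 members were called in LeptoM shCTL (IL1R1 higher, IL1A, IL1B and IL18 lower) against 48.7% of 14387 genes. The hairpins called far fewer genes there: 1 of 7 members (IL1A) with shLCN2_1 against 0.841%, none of 7 with shLCN2_2 against 0.521%, and 2 of 7 (IL1A and IL1B) between the hairpins against 2.69%. For shLCN2_2, limma gave IL1B and IL18 an unadjusted p under 0.05 and edgeR called IL1B alone. Without the parental group, the count for shLCN2_2 was 1 (IL1B). Between the hairpins, the IL1B call was lost without any 1 of the 6 LeptoM libraries, and the IL1A call without any 1 of the 4 libraries of the LCN2 hairpins.

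The lines were compared through the difference of their effects, MDA231 minus PC9, for the 8 members with values in both. IL1RN, below the minimum in MDA231, entered through its PC9 values alone (-2.01, adjusted p = 0.0511 in LeptoM) and is not read as a difference. For LeptoM against parental, 4 of 8 differed against 41.9% of 15052 genes: IL1R1 by 2.43 (SE 0.19, adjusted p = 2.16e-06), IL18 by -1.60 (SE 0.18, adjusted p = 3.03e-05), IRAK2 by 1.24 (SE 0.42, adjusted p = 0.0319, lost without any 1 of 7 libraries at 0.0621 to 0.0863) and IL1RAP by -0.53 (SE 0.15, adjusted p = 0.0122; 0.0582 without PC9 parental replicate 2). IL1A and IL1B, with lower means in LeptoM shCTL in both lines, differed by 0.29 (95% interval -0.95 to 1.53) and -0.36 (-1.15 to 0.43). For shLCN2_1 only IRAK1 differed (1.73, SE 0.37, adjusted p = 0.00963; 0.0524 and 0.0548 without shCTL or shLCN2_1 replicate 2 of MDA231), 1 of 8 against 31.1%, and its PC9 value was -0.20 with the GC trend removed. For shLCN2_2 limma called 0 of 8 against 4.78%, with unadjusted p under 0.05 for IL18 and IL1RAP.

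Other IL1 family genes were read from a list of 14, of which 7 were tested in PC9 and 5 in MDA231. In LeptoM shCTL, 2 rose and 1 fell in each line, beside 45.6% of all genes called in PC9 and 48.7% in MDA231, with medians of 0.06 in PC9 and 1.03 in MDA231 against 0.01 and 0.04 over all genes. IL1RL1, the IL-33 receptor, rose in both, by 2.08 in PC9 (218 and 250 to 981 and 995) and by 1.73 in MDA231 (5.67 and 8.94 to 20.7 and 32.6, 2 and 3 reads in the parental libraries), with no row for its ligand IL33. The MDA231 size depends on the 1 added before the log, and the call was lost with edgeR (adjusted p = 0.0576) and without either shCTL library (0.0515 and 0.114). IL36RN, another receptor antagonist, rose by 1.00 in PC9. IL18BP, which neutralises IL-18, fell by 0.80 in PC9 and rose by 1.75 in MDA231, on 7 and 12 parental reads, so it moved opposite to IL18 in MDA231. IL1RAPL1 fell by 0.89 in MDA231. With shLCN2_1 in PC9, SIGIRR, a negative regulator, fell by 1.68 and IL36RN by 0.92, in 4 lower calls of 7 beside 25.3% of all genes called lower. With the GC trend removed SIGIRR was at -0.05 and not called, and IL36RN was at -1.03. In PC9 also, with shLCN2_2, IL1RL1 fell by 0.56 and IL18R1 by 0.43. Both shLCN2_2 calls were lost without any 1 of the 4 libraries compared (adjusted p of 0.0675 to 0.303).

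Among 18 adaptors, kinases and ubiquitin ligases downstream of the receptors, 4 rose and 6 fell of 17 tested in PC9 LeptoM shCTL, and 4 rose and 6 fell of 18 in MDA231, beside 45.6% and 48.7% of all genes called in either direction. PELI2, a ligase of the IRAK complex, was the largest change in both, at 3.15 in PC9 (27.8 and 19.96 to 204 and 230) and 2.07 in MDA231 (59.6 and 71.5 to 285 and 270). In PC9 TAB3, a partner of the kinase TAK1, fell by 0.63 and the adaptor MYD88 rose by 0.55. In MDA231 IRAK4 fell by 1.02 and IRAK3, an inhibitory kinase, by 0.93, while PELI3 rose by 0.96, a call lost with the GC trend removed (0.30) and without parental replicate 2, either shCTL library or either shLCN2_1 library. With shLCN2_1 in PC9, 7 rose and 6 fell beside 44.2% of all genes called, PELI2 rising a further 1.42 and TOLLIP falling by 1.14. With the GC trend removed these counts were 4 and 3 beside 24.9%, with PELI2 at 1.204 and TOLLIP at -0.61, both still called. In MDA231 neither hairpin gave a call among these 18 genes, beside 0.841% of all genes called with shLCN2_1 and 0.521% with shLCN2_2. Calls were thus rare there for any genes.

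For the machinery that activates IL-1 beta and IL-18, 6 of 13 listed genes were tested in PC9 and 9 in MDA231. PYCARD, the inflammasome adaptor ASC, rose by 1.41 in PC9 LeptoM shCTL (155 and 230 to 505 and 504), fell by 1.28 with shLCN2_1 (not called with the GC trend removed) and rose by 0.77 with shLCN2_2 (adjusted p of 0.105 to 0.167 without any 1 of the 4 libraries compared). GSDMD, the pore through which IL-1 beta leaves the cell, was lower with shLCN2_1 by 1.87 (935 and 923 against 3380 and 3420), and with the GC trend removed the difference was -0.55 and still called. The sensor NLRP1 fell by 1.24 in PC9 LeptoM shCTL (227 and 234 to 99.1 and 95.5). CASP1, the enzyme that cuts both precursors, was at 1.02 to 11.3 in PC9 and 93.6 to 191 in MDA231. In MDA231 LeptoM shCTL, NLRP10 rose by 1.69 and NLRP1 by 0.96 (not called without shCTL replicate 1), while NLRP3, the best-known inflammasome sensor, fell by 0.71 (834 and 748 to 493 and 470).

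Genes known to respond to IL-1 were read from a list of 28, of which 20 were tested in PC9 and 22 in MDA231. In PC9 LeptoM shCTL, 4 rose and 2 fell, 6 of 20 beside 45.6% of all genes (median 0.30 against 0.01), with NOD2 at 1.85 and LCN2 at 1.18 higher and ICAM1 at -1.09 lower. In MDA231 LeptoM shCTL, 8 rose and 8 fell, 16 of 22 beside 48.7% of all genes (median 0.22 against 0.04). CCL2, a monocyte chemoattractant, rose by 5.05 (31.2 and 23.8 to 908 and 963), CSF2 by 2.20, ICAM1 by 2.24 and the complement gene C3 by 1.91. In the same MDA231 comparison IL1A and IL1B fell, as above, while SAA1, MMP3 and CXCL1 fell by 1.48, 1.43 and 1.04. SAA2 rose by 2.57 in PC9, with the near-identical SAA1 as an uncertain source of its reads, and the call was lost without any 1 of the 4 libraries compared (adjusted p of 0.0675 to 0.102).

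With shLCN2_1 in PC9, 7 of the 20 responsive genes fell, LCN2 itself among them, and none rose (median -0.94 against 0.03). Of all genes, 25.3% were called lower. ZC3H12A was at -1.69, IL6 at -1.33 and LIF at -1.18. With the GC trend removed 5 fell and none rose, beside 24.9% of all genes called in either direction. In that setting IL6 at -1.52 and LIF at -0.71 were still called and ZC3H12A at -0.77 was not. With shLCN2_2, 3 fell (IL6 by 1.98, LCN2 by 1.32 and LIF by 0.59; 9.7% of all genes were called lower) and the median was -0.037 against -0.0023. Without either shCTL library the LCN2 and LIF calls were lost (adjusted p of 0.0678 to 0.0818), while IL6 remained called. IL6 values in PC9 were 111 and 113 in parental cells, 86.2 and 91.5 with shCTL, 29.4 and 40.7 with shLCN2_1, and 20.9 and 22.5 with shLCN2_2. In MDA231 the hairpins went different ways: MMP3 fell by 1.84 and IL6 by 0.86 with shLCN2_1, where IL1A was low. CCL2 rose by 1.14, PTGS2 by 0.98 and MMP3 by 0.96 with shLCN2_2, where IL1B had its lowest values. All 5 of these calls were lost without either shCTL library (adjusted p of 0.0594 to 0.406). MMP3 was at 519 and 567 with shCTL, 151 and 150 with shLCN2_1, and 997 and 1112 with shLCN2_2.

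**Figure D3:**
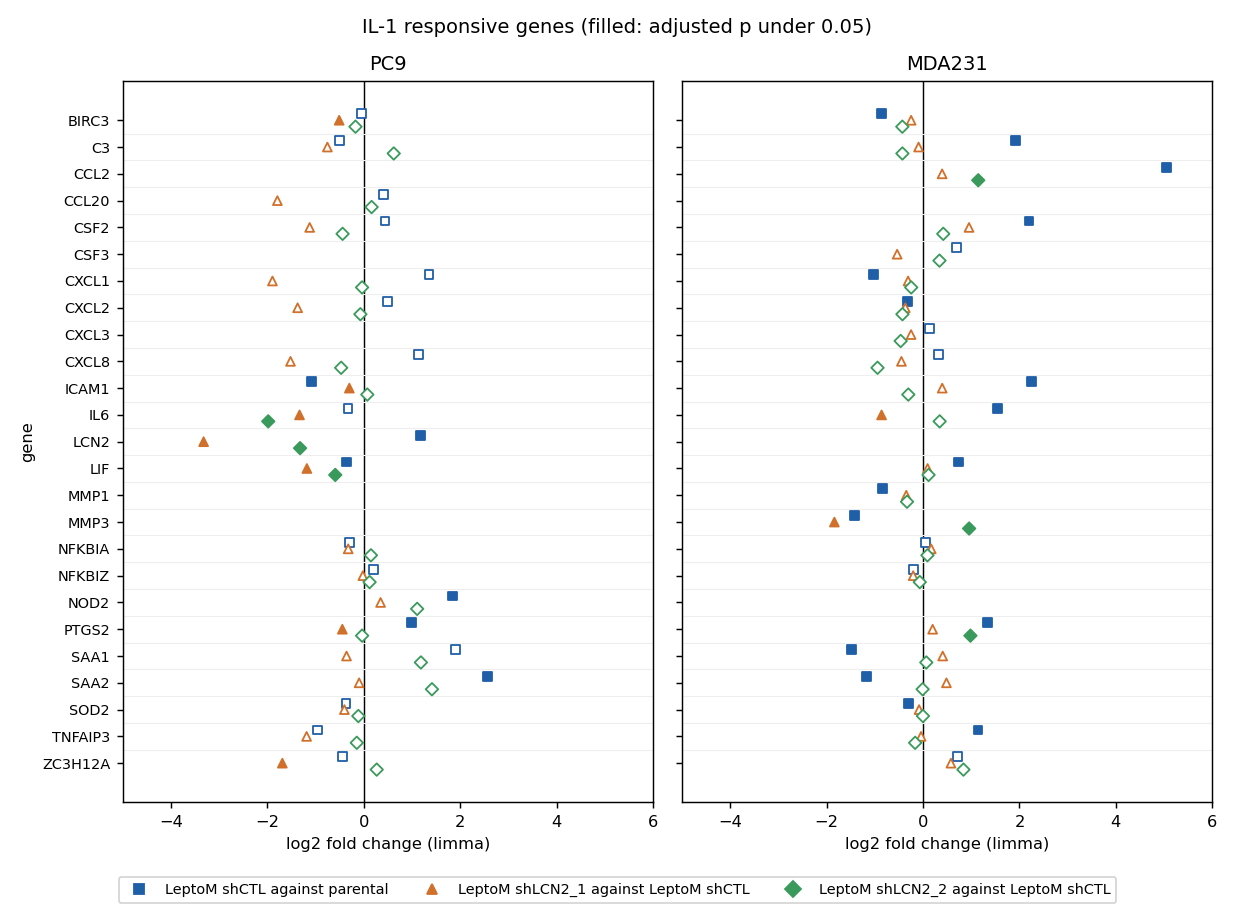
Log2 fold changes of the tested IL-1 responsive genes, PC9 left and MDA231 right, for LeptoM shCTL against parental and each hairpin against shCTL; filled symbols passed an adjusted p of 0.05. CCL2 stands at 5.05 in MDA231 LeptoM, and MMP3 lies at -1.84 with shLCN2_1 and 0.96 with shLCN2_2.

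Sums of marker lists differed between these groups. The epithelial list summed to 536805 to 595679 in PC9 parental cells, 681064 to 718711 with shCTL, 424194 to 437327 with shLCN2_1 and 715527 to 719626 with shLCN2_2. These sums were mostly KRT8, KRT18 and KRT19, with the GC trend not removed. Other genes of the list moved differently. In the same order of groups, mean EPCAM was 20006, 15954, 18382 and 11890. Mean CDH1 was 20767, 20207, 25537 and 27597, and mean ELF3 was 1596, 7168, 6469 and 6856. In MDA231 the epithelial list ran from 14166 to 19277 in parental cells and from 22786 to 34585 in LeptoM. The summed value of the mesenchymal list was 120263 to 130576 in parental cells and 6178 to 24428 in the 6 LeptoM libraries, mostly FN1, beside the rise of IL1RN and the fall of IL1R1. In MDA231 the same list ran from 188358 to 194829 in parental cells and from 212806 to 236184 in LeptoM, mostly VIM, while SPARC, on the same list, went from 2473 and 2631 to 2.28 to 9.34. The macrophage and leukocyte list, with 5 of 10 genes having a row in PC9, summed to 804 and 878 in parental cells, 564 to 593 with shCTL, 276 to 401 with shLCN2_1 and 1151 to 1200 with shLCN2_2, mostly CSF1R and ITGAM. Their part in the results of the members was not tested.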

How the data were processed

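RNA-seq was measured in 16 libraries, 8 per line, in 4 groups of 2. The members and gene lists were chosen with earlier results of these data known. The authors deposited 1 table per line whose values are a signal: the reads of a gene over a size factor for that library. The submitters' processing notes name HTSeq 0.5.3, DESeq2 1.22.1 and hg19. Aligner, annotation and strandedness of counting are not given in the sources used here, and antisense genes are therefore uncertain. After division by the value of 1 read, 100% of values in both tables were whole within 0.001. In PC9, 4 lines naming no gene, 24.4 to 36.5% of a library's reads, were left out.

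Values were tested as log2(value + 1), for genes with a mean of 10 or more, with limma 3.58.1 (R 4.3.3) in 1 fit per table, with a trended prior, two-sided p-values and Benjamini-Hochberg adjustment over all tested genes. A call means an adjusted p under 0.05. The 1 added changes the fold of low genes. The lines were compared in 1 fit over 16 libraries and 15052 genes. EdgeR 4.0.16 was run on the recovered reads. The other alternatives were pseudocounts of 0.5 and 4, no minimum, a minimum of 50, upper-quartile scaling, equal depth, removal of the trend of values over GC content (96.9% of PC9 and 97.1% of MDA231 genes matched to GENCODE v29), a replicate block, only the groups compared, and each library left out. The GC content of a gene was that of its longest GENCODE v29 transcript. A group left out of the fit was added after seeing the data. On simulated PC9 counts for LeptoM shCTL against parental, 87.9% of 2-fold and 100% of 4-fold changes were recovered over 15645 genes. The simulation gave every gene and group the same spread between replicates beyond counting error, and no GC trend. Replicate spread differed between the real groups, so these shares do not give the power reached in the real libraries. PCR copies are not independent molecules, so read counts speak for counting error only. All members are named. From each list, genes are named among the up to 4 called with the largest change in a comparison, not all of them; others, such as CASP1, SAA1, CXCL1 and MMP3 in MDA231 LeptoM cells, were chosen after their values were seen. Gene coordinates are GRCh38, matched by gene ID, and are not those of the deposited tables. Replicates differed by a chi-square per degree of freedom of 2.72 to 35.2, so none was counted as the same library.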

Additional observations from a re-analysis of the deposited data

Results flagged for a closer look

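Each of the following is a difference between the lines in the same comparison, as the MDA231 effect minus the PC9 effect by limma, and their causes were not tested. For LeptoM shCTL against parental, IL1R1 differed by 2.43 (adjusted p = 2.16e-06), falling by 0.65 in PC9 and rising by 1.77 in MDA231, and the difference lay between 2.24 and 2.62 with any 1 of the 16 libraries left out. IL18 differed by -1.60 (adjusted p = 3.03e-05), with 0.27 in PC9 and -1.33 in MDA231. IRAK2 differed by 1.24 (adjusted p = 0.0319), with -0.93 in PC9 and 0.31 in MDA231, neither called on its own, and this call was lost without any 1 of 7 of the libraries compared (adjusted p of 0.0621 to 0.0863). IL1RAP differed by -0.53 (adjusted p = 0.0122), with 0.38 in PC9 and -0.15 in MDA231, and without PC9 parental replicate 2 it was -0.43 (adjusted p = 0.0582).

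For shLCN2_1 against shCTL, IRAK1 differed by 1.73 (adjusted p = 0.00963), with -1.33 in PC9 and 0.40 in MDA231. The PC9 value was -0.20 with the GC trend removed. Without replicate 2 of shCTL or of shLCN2_1 in MDA231 the difference was 1.61 and 1.503 (adjusted p = 0.0524 and 0.0548).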

How the results depend on the processing

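Counts of called members are given here for settings that moved them, and the cause was not tested unless named. For PC9 LeptoM shCTL against parental (3), the count was 5 with edgeR, with the GC trend removed and with the replicate block and GC trend removed (all genes 46.1%, 48.0% and 46.8% called), 7 with only the 2 groups compared and with the shLCN2_1 group left out (52.4% and 56.7%), and 2 to 7 with 1 library left out. For PC9 shLCN2_1 (4) it was 1 with the GC trend removed, without or with the replicate block (24.9% and 22.9%), 2 with only the 2 groups compared (33.5%), and 1 to 7 with 1 library left out (1 without either shCTL library, 7 without shLCN2_1 replicate 2). For PC9 shLCN2_2 (1) it was 0 with no minimum and with the replicate block, 3 with the GC trend removed (23.9%), 2 with both (22.2%), 5 with only the 2 groups compared (51.4%), 2 without the shLCN2_1 group (34.7%), and 0 to 2 with 1 library left out. For PC9 shLCN2_1 against shLCN2_2 (3) it was 2 to 6 with 1 library left out. For MDA231 shLCN2_1 (1) it was 2 with the GC trend removed and 0 to 1 with 1 library left out. For MDA231 shLCN2_2 (0) it was 1 with edgeR, with the GC trend removed with or without the replicate block, with only the 2 groups compared and without the parental group, and 0 to 1 with 1 library left out. For MDA231 shLCN2_1 against shLCN2_2 (2) it was 1 with no minimum, equal depth, the replicate block and only the 2 groups compared, 4 with the GC trend removed, and 0 to 3 with 1 library left out. For the differences between lines, leaving out 1 library gave 2 to 5 for LeptoM (4), 0 to 4 for shLCN2_1 (1) and 0 to 1 for shLCN2_2 (0). MDA231 LeptoM shCTL (4) stayed within 1.5 times in every setting, at 4 to 6 with 1 library left out.

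In PC9 the GC trend removed, with and without the replicate block, turned PELI3 in shLCN2_1 against shCTL to 0.15, and in shLCN2_1 against shLCN2_2 turned IRAK1 to 0.074, ECSIT to 0.23 and SIGIRR to 0.22, where GC content was the setting's own change. In PC9 shLCN2_1 against shLCN2_2, IL1R2 ran from -0.76 to 0.37 and, in the difference between lines for shLCN2_1, IL1B ran from -0.48 to 0.65 with 1 library left out, the outer values coming from the shLCN2_1 libraries of PC9. The labels do not say that replicate numbers pair the samples. Differences between replicates 1 and 2 correlated between groups at -0.09 to 0.16 in PC9. In MDA231 they correlated at 0.67 to 0.71 among parental, shCTL and shLCN2_2, and at -0.82 to -0.67 between these and shLCN2_1. The MDA231 groups thus shared a direction of replicate difference, reversed in shLCN2_1, and its source was not tested. With the replicate block the PC9 shLCN2_2 count went from 1 to 0. Counts over all genes moved too: for PC9 shLCN2_1 from 6910 to 3899 with the GC trend removed, and for PC9 shLCN2_2 from 3053 to 8045 with only the 2 groups compared and to 361 to 5469 with 1 library left out. For MDA231 they went from 121 (shLCN2_1), 75 (shLCN2_2) and 387 (between hairpins) to 297, 188 and 687 with edgeR, to 1373, 1030 and 2650 with the GC trend removed, and to 0 to 674, 0 to 366 and 8 to 1225 with 1 library left out. Depth limits IL1RN in MDA231, where 3 reads gave a value of 8.51 and 8.94 in the parental libraries.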

Other observations

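The genes most like each ligand or antagonist across the 8 libraries of a line were taken as the 3 with the smallest root-mean-square difference in log2 deviation from their own mean. For IL1RN in PC9 these were MTARC1, listed under a date-like symbol (0.10), ZNF347 (0.10) and ZNF607 (0.13), among 12941 genes. For IL1B in PC9 they were TFPI, WWTR1 and SP2-DT, listed as RP11-6N17.4 (0.13 to 0.14), and for IL18 in PC9 SLC25A43, AC096772.6 and HIGD1A (0.06 each). In MDA231, among 12009 genes, they were LINC01291, SELENOT and LINC01293 for IL1A (0.11 to 0.18), SENP7, KBTBD3 and HNRNPAB for IL1B (0.06 to 0.07), and LBR, TANK and UBA3 for IL18 (0.03 to 0.05).

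IRAK1 over IRAK2, per kb, was 7.70 and 9.93 in PC9 parental cells, 16.6 and 16.01 with shCTL, 24.2 and 10.4 with shLCN2_1, and 14.7 and 14.6 with shLCN2_2.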
